A study of Mus musculus with 24 samples.

Results

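A set of 9 genes of fibroblast growth factor (FGF) and extracellular signal-regulated kinase (ERK) signalling was followed in mouse embryos at the blastocyst stage, shortly before implantation. They were the ligand Fgf4, the receptors Fgfr1 and Fgfr2, the adaptor Grb2, the feedback inhibitors Spry2, Spry4 and Dusp6, and the ERK-responsive transcription factors Etv4 and Etv5. The genes were listed by symbol for their role in the pathway. They were 9 of the 19938 genes with a single gene symbol on the array, and all 9 were among the 13311 genes bright enough to be tested. The parents were outbred NMRI mice (RjHan:NMRI). Obese parents had received a high-calorie diet rich in fat, and lean parents its control diet, during 9 weeks that began when they were 3 weeks old, and matings were set up at 12 weeks of age. Blastocysts were collected at day 3.5 after mating, and for each array 3 sex-matched embryos of a single mother were lysed and pooled. The 6 groups were male and female embryos of lean parents, of an obese mother with a lean father, and of an obese father with a lean mother, with 4 arrays each. All animals received the control diet during mating, so the parents' groups differed in the feeding before it. The labels name 7 animals on the high-fat diet and 14 on the control diet without saying which pool came from which parents. If these were all the animals, some pools shared a mother, so the p-values below measure the spread between pools and not between litters.

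In the mouse blastocyst, cells of the early epiblast secrete FGF4. Neighbouring inner cells receive it through FGFR1 and FGFR2, and the adaptor GRB2 links the receptors to RAS and the ERK cascade, whose activity favours primitive endoderm over epiblast. The same ligand acts through FGFR2 in the trophectoderm, the outer layer that forms the placenta. Sprouty proteins (Spry2, Spry4) and the ERK phosphatase DUSP6 are induced by the pathway and dampen it, and Etv4 and Etv5 are transcribed in response to ERK. Because whole embryos were measured, fewer cells of a lineage and less RNA per cell cannot be told apart.

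Levels are log2 intensities of the probe set with the highest mean for each gene, and a difference of 1 is a doubling. Levels of different genes cannot be compared on this scale, because each probe set has its own response. The median of all values in the table was 2.56 and serves as a mark of dim signal. Fgf4, Fgfr1, Grb2, Spry2, Etv4 and Etv5 were above it on 24 of 24 arrays, Spry4 on 21, Dusp6 on 20 and Fgfr2 on 8. Etv5 had 2 probe sets, and values and counts use the brighter unless the dimmer is named. The dimmer Etv5 set exceeded the median on 9 arrays, and the brighter may not measure the gene, as described below. The lineages in which the pathway acts were represented: the epiblast gene Nanog, the primitive endoderm genes Gata6 and Sox17 and the trophectoderm genes Cdx2 and Krt8 exceeded the median on 24 of 24 arrays, Gata4 on 23 and Pdgfra on 18. Array means were nearly equal, between 2.82 and 2.86, but the standard deviation (SD) of the values of an array ran from 1.27 to 1.81. The array SD averaged 1.56 ± 0.11 for males of obese fathers and 1.38 ± 0.12 for lean-parent males (SD, n = 4 each; exact permutation test, two-sided, p = 0.114, adjusted p = 0.457 over 4 comparisons). Over the tested genes the median correlation of a gene's level with the array's SD was -0.418 across the 24 arrays.

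**Figure D1:**
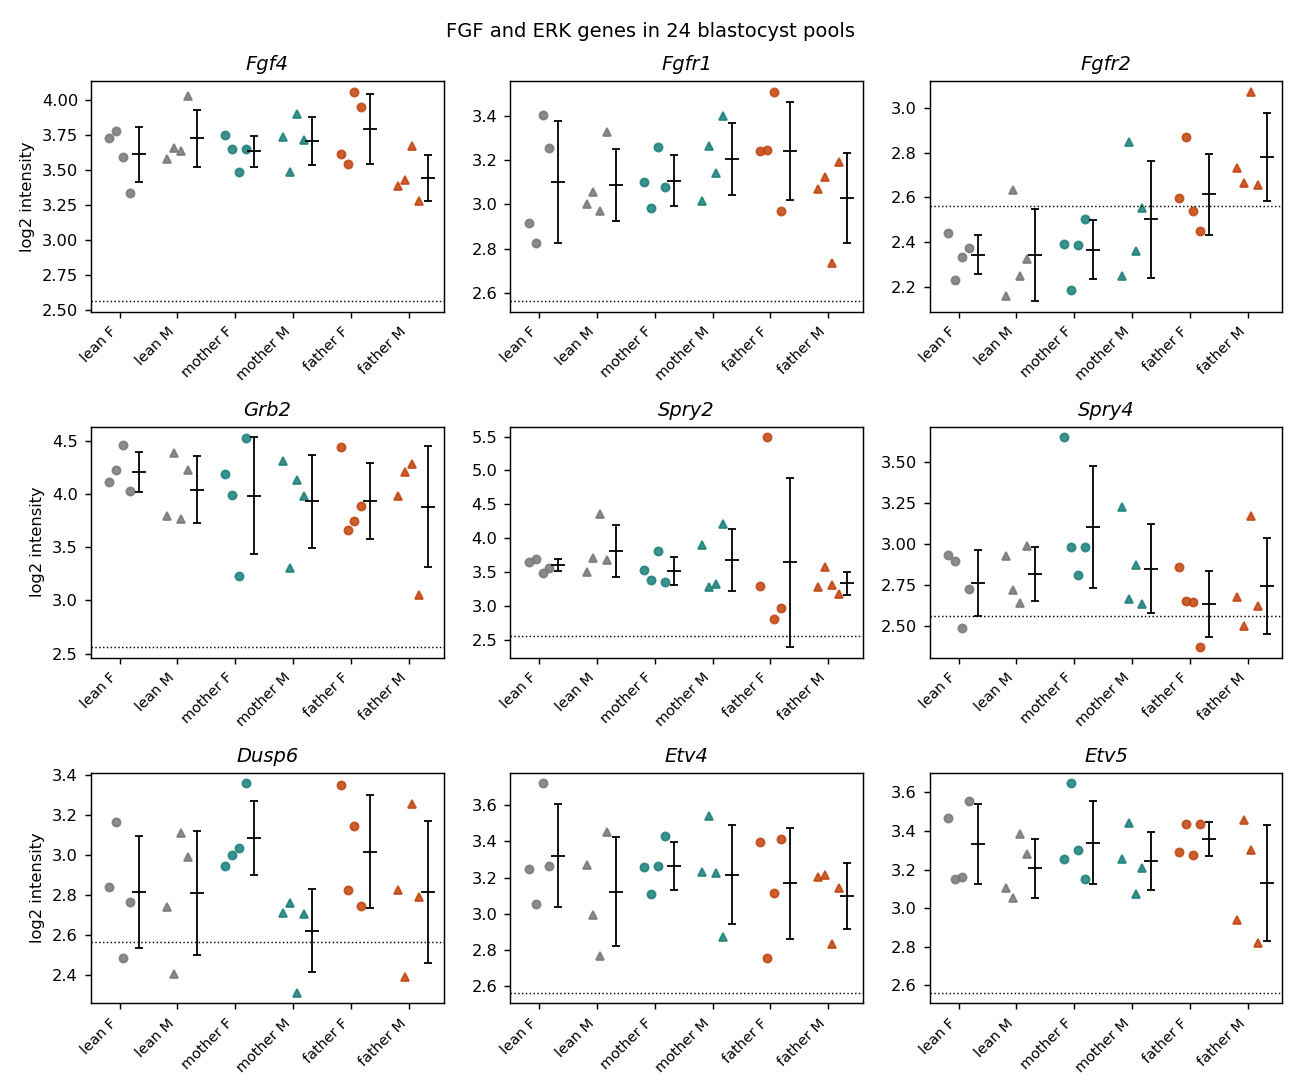
Log2 intensity of the 9 genes in the 24 blastocyst pools. Each symbol is 1 array (circles female, triangles male; grey lean parents, green obese mother, orange obese father; the axis names the obese parent, with F and M for the sex), the horizontal and vertical bars give the group mean ± SD (n = 4), and the dotted line is the median of all values, 2.56. Fgfr2 is above the line mainly in the obese-father pools, and Spry2 has a single high array at 5.49 in obese-father females.

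Between each obese parent and lean parents, in each sex, none of the 9 genes passed the threshold, an adjusted p under 0.05 in limma with Benjamini-Hochberg adjustment over 13311 genes. The same held for the other comparisons, 14 in all, and the smallest adjusted p of any of the 9 genes was 0.316. At an unadjusted p under 0.05, 1 of 9 genes differed between obese-father and lean-parent males, where 14.7% of all genes tested did so and 0.00751% passed the adjusted threshold. Of the 9, 0 reached this unadjusted level between obese-father and lean-parent females (background 2.84%), between obese-mother and lean-parent males (1.7%) and between obese-mother and lean-parent females (2.19%). In those 3 comparisons 0% of the genes tested passed the adjusted threshold, and 378, 226 and 291 genes respectively had an unadjusted p under 0.05. The count of 0 in obese-father females rests on the brighter Etv5 probe set. The dimmer Etv5 set had an unadjusted p of 0.0376 in limma in that comparison. The gene at that level in obese-father males was Fgfr2, which is 1 of 9. The background of that comparison was itself unstable: of 13311 genes, 1958 had an unadjusted p under 0.05, 956 with the SD of all log2 signals of the array as a covariate, and 836 to 2739 on leaving out each array in turn, so the share of the 9 cannot be placed above or below it. Of the remaining comparisons, 0 of 9 genes reached the unadjusted level between obese-mother and obese-father males (background 8.35%), between male and female embryos of lean parents (3.37%) or of all parents together (2.17%), for the obese-mother effect over both sexes (1.52%) and for its difference between the sexes (2.58%). The comparisons in which a gene did are given with that gene. The 4 comparisons with lean parents used the lean-parent arrays of the same sex as controls, so the effects of the obese father and the obese mother are not independent of each other.

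Taken by direction, 2 of the 9 genes had a log2 fold change above 0 in obese-father males, with a median of -0.07, against 33.3% of all genes tested and a median of -0.11. In obese-father females 6 of 9 were above 0 (median 0.04; 54.9% of all genes). In obese-mother embryos 5 of 9 were above 0 in males (median 0.03; 46.1% of all genes) and 6 of 9 in females (median 0.0068; 61.7% of all genes). The shift of all genes in obese-father males depended on scaling: centring each array on its median moved it from -0.11 to -0.01, and quantile normalization moved it to -0.05.

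**Figure D2:**
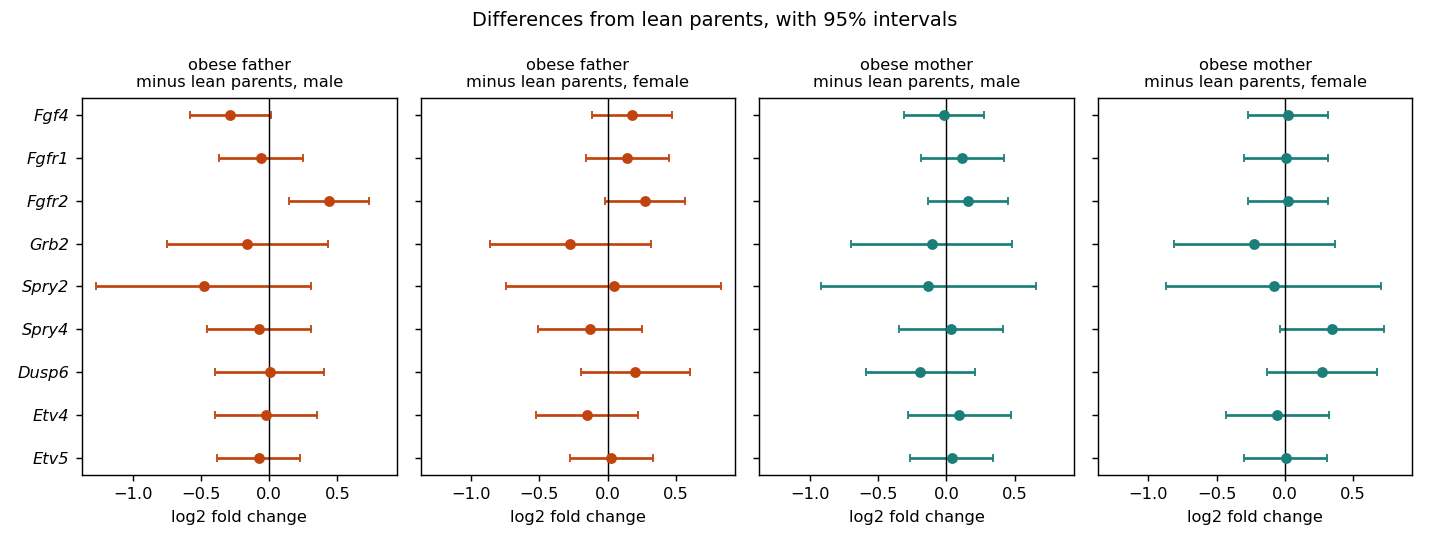
Differences of obese-father (orange) and obese-mother (green) embryos from lean-parent embryos of the same sex for the 9 genes. Points are log2 fold changes and bars their 95% confidence intervals from limma (n = 4 arrays per group). The interval of Fgfr2 in obese-father males, 0.15 to 0.73, lies above 0, and the widest intervals are those of Spry2.

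Fgf4 encodes the ligand made by epiblast cells. In lean-parent embryos its log2 level was 3.73, 3.78, 3.60 and 3.34 in females and 3.58, 3.66, 3.64 and 4.03 in males. In obese-father embryos it was 3.61, 3.54, 4.06 and 3.95 in females and 3.39, 3.43, 3.67 and 3.28 in males. The obese-father males were thus at the low end and the obese-father females included the highest single value, but both groups overlapped with the lean-parent pools of their sex. The difference from lean parents was -0.28 in males (SE 0.14, 95% confidence interval -0.58 to 0.01, limma adjusted p = 0.346) and 0.18 in females (SE 0.14, interval -0.12 to 0.47, limma adjusted p = 0.9997).

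The test of the difference between the sexes in the obese-father effect on Fgf4 gave -0.46 (SE 0.20, interval -0.88 to -0.05, limma adjusted p = 0.654), with an unadjusted p under 0.05. In that comparison 7.54% of all genes had an unadjusted p under 0.05 and 0% passed the adjusted threshold. Within the obese-father group males were below females by -0.35 (SE 0.14, interval -0.64 to -0.05, limma adjusted p = 0.843), also at an unadjusted p under 0.05, where the background was 5.42% unadjusted and 0.00751% adjusted. With an obese mother Fgf4 was close to the lean-parent mean, at 3.75, 3.65, 3.49 and 3.65 in females and 3.74, 3.49, 3.90 and 3.71 in males. The differences were 0.02 in females (SE 0.14, interval -0.27 to 0.32) and -0.02 in males (SE 0.14, interval -0.31 to 0.28).

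Across the 24 arrays the Fgf4 level had a correlation of -0.541 with the SD of the array, and the obese-father males held arrays of wide spread. With the array SD as a covariate, the difference in obese-father males was -0.15 (limma adjusted p = 0.866). Without lean-parent male array 4, at 4.03, it was -0.18. The difference of the obese-father effect between the sexes ran from -0.55 to -0.36 on leaving out each array, and its unadjusted p was above 0.05 without array 4, 12, 16, 23 or 24. The male-minus-female difference with an obese father ran from -0.43 to -0.26, and its unadjusted p was above 0.05 without array 12, 23 or 24. The part of array spread in the Fgf4 difference was not tested beyond these values.

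Fgfr1 and Fgfr2 encode the receptors for FGF4 in the blastocyst, FGFR1 in all inner cells and FGFR2 in primitive endoderm precursors and the trophectoderm. Fgfr2 was the gene of the 9 whose obese-father pools stood apart from the lean-parent pools in both sexes. Its log2 level was 2.44, 2.23, 2.33 and 2.37 in lean-parent females and 2.16, 2.63, 2.25 and 2.32 in lean-parent males. In obese-father embryos it was 2.60, 2.87, 2.54 and 2.45 in females and 2.73, 2.66, 3.07 and 2.66 in males. In each sex the lowest obese-father pool lay above the highest lean-parent pool, by a narrow margin (2.45 against 2.44 in females, 2.66 against 2.63 in males). Such separation was seen in 1.22% of all genes tested in females and in 8.54% in males.

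The Fgfr2 difference between obese-father and lean-parent embryos was 0.44 in males (SE 0.14, interval 0.15 to 0.73, limma adjusted p = 0.316). It was 0.27 in females (SE 0.14, interval -0.02 to 0.56, limma adjusted p = 0.9997). Averaged over both sexes it was 0.35 (SE 0.10, interval 0.15 to 0.56, limma adjusted p = 0.623), with an unadjusted p under 0.05, as for 7.41% of all genes, and 0% passed the adjusted threshold. The obese-father effect did not differ detectably between the sexes (0.17 higher in males, SE 0.20, interval -0.24 to 0.58, limma adjusted p = 0.795).

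With an obese mother Fgfr2 was 2.39, 2.19, 2.38 and 2.50 in females and 2.25, 2.85, 2.36 and 2.55 in males, overlapping both other kinds of parents. Over the sexes together, the level was 2.34 ± 0.15 with lean parents, 2.43 ± 0.20 with an obese mother and 2.70 ± 0.20 with an obese father (SD, n = 8 each). Obese-mother minus obese-father embryos differed by -0.28 in males (SE 0.14, interval -0.57 to 0.01, limma adjusted p = 0.573) and by -0.25 in females (SE 0.14, interval -0.54 to 0.04, limma adjusted p = 0.975). None of the 9 genes was free of overlap between these groups, which 6.84% of all genes tested were in males and 1.6% in females.

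Fgfr2 was the dimmest of the 9 probe sets relative to the filter. It exceeded the median of all values on 6 of 8 obese-father arrays and on 2 of the 16 others, so it passed the filter of 4 arrays only through the group in which it was high. Its difference and its separation from lean parents are therefore not independent of the filter, and the shares of tested genes printed beside them lend them no support. Under a filter of at least 12 of 24 arrays it was not tested, and without any filter its difference in males was the same 0.44 (adjusted p = 0.314). The correlation of Fgfr2 with the SD of the array was 0.481, opposite in sign to the median gene. With that SD as a covariate the difference was 0.36 in males (limma adjusted p = 0.613) and 0.31 over both sexes (limma adjusted p = 0.975). Leaving out each array in turn gave 0.34 to 0.54 in males, and without array 22, the obese-father female of widest spread, the female difference was 0.18.

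Most trophectoderm markers had differences of the same sign as Fgfr2, none past the threshold. Of the 15 listed, 13 had a fold change above 0 in obese-father males, with a median of 0.35 (33.3% of all genes, median -0.11), and 11 did in obese-father females, with a median of 0.13 (54.9% of all genes). The 13 epiblast markers, Fgf4 among them, had a median of 0.27 in males with 7 above 0, and of 0.06 in females with 10 above 0. The mean log2 level of the trophectoderm list ran from 4.56 to 5.29 in obese-father males against 3.94 to 4.67 in lean-parent males, and from 4.34 to 5.33 against 4.31 to 4.70 in females. In males 3 of 15 trophectoderm markers had an unadjusted p under 0.05, beside 14.7% of all genes, and 0 passed the adjusted threshold in limma. Primitive endoderm markers, of which 14 were tested, had a median of 0.10 in males with 9 above 0, and their mean level overlapped between the groups (3.36 to 3.63 against 3.37 to 3.48). Against lean parents, trophectoderm markers were also mostly above 0 in obese-mother males, 12 of 15 with a median of 0.12 (46.1% of all genes). In obese-mother females 9 of 15 were, with a median of 0.0081 (61.7% of all genes). The trophectoderm list was bright, where the median level of the tested genes was 3.03. With nearly equal array means, a wider array SD places bright genes higher on average. Obese-father males had the highest mean array SD of the 6 groups. The shares of all genes are therefore not matched to this list for brightness. The part of array spread in the marker differences, and that of the markers in the Fgfr2 difference, were not tested.

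**Figure D3:**
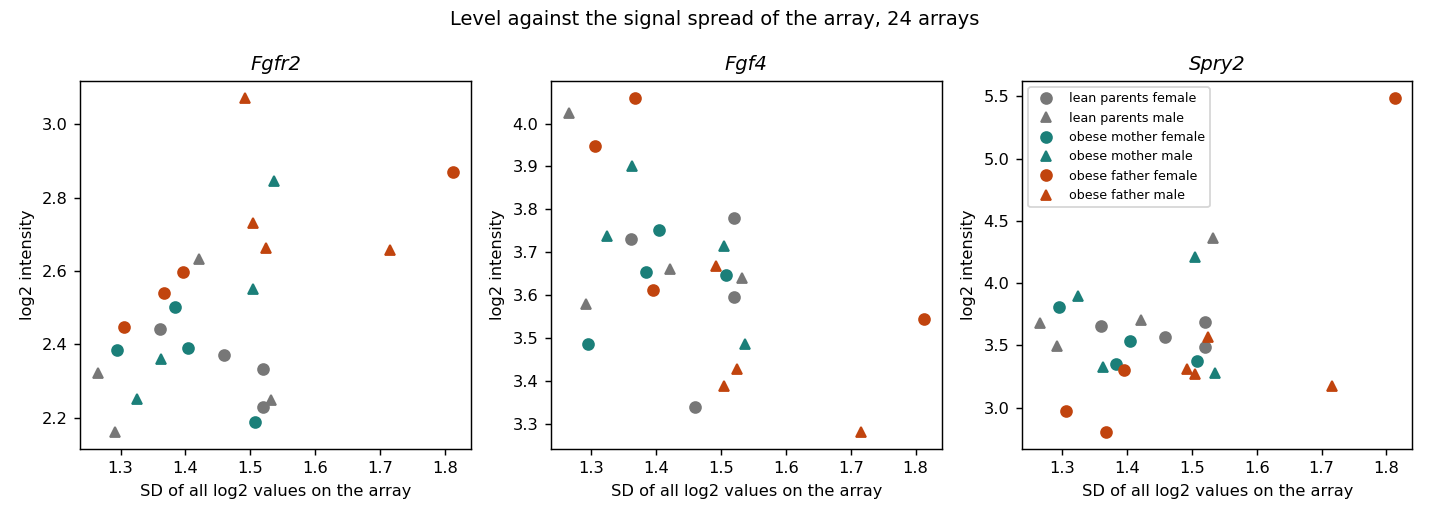
Log2 intensity of Fgfr2, Fgf4 and Spry2 against the standard deviation of all log2 values on the same array (24 arrays, symbols by parents and sex). The correlation is 0.481 for Fgfr2, -0.541 for Fgf4 and 0.458 for Spry2, and the array of widest spread, at 1.81, carries the Spry2 value of 5.49.

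Fgfr1 differed little between groups. Its group means ran from 3.03 ± 0.20 in obese-father males to 3.24 ± 0.22 in obese-father females (SD, n = 4), a range of 0.21 against a pooled SD within groups of 0.20. The lowest array of all, at 2.73, was an obese-father male and the highest, at 3.51, an obese-father female. The difference from lean parents was -0.06 in obese-father males (SE 0.15, interval -0.36 to 0.25) and 0.14 in obese-father females (SE 0.15, interval -0.16 to 0.45), and 0.12 and 0.0068 in obese-mother males and females. Its SD over the 24 arrays, 0.19, was at the 10.5 percentile of the genes tested.

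Grb2 encodes the adaptor that couples the receptors to RAS activation. Its group means ran from 3.88 ± 0.57 in obese-father males to 4.21 ± 0.19 in lean-parent females, and this range of 0.33 was smaller than the pooled SD within groups, 0.42. The low values were single arrays in different groups: 3.23 in obese-mother females, 3.31 in obese-mother males and 3.06 in obese-father males, each beside pools of the same group near 4. All 4 differences from lean parents were below 0, between -0.11 and -0.27, with standard errors of 0.28. Of these signs 3 rested on single arrays. The difference went from -0.22 to 0.03 in obese-mother females without the array at 3.23, from -0.11 to 0.10 in obese-mother males without the array at 3.31, and from -0.16 to 0.12 in obese-father males without the array at 3.06. In obese-mother males it was also above 0, at 0.0074, without lean-parent male array 2, and in obese-father males it was 0.0042 with array weights and 0.03 with the SD of the array as a covariate.

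Spry2, a Sprouty inhibitor of receptor signalling to ERK, varied most among the 9 genes, with an SD over the 24 arrays of 0.53, at the 88.4 percentile of the genes tested. In obese-father females its log2 level was 3.30, 5.49, 2.80 and 2.97, and in lean-parent females 3.65, 3.69, 3.49 and 3.57. In obese-father males it was 3.27, 3.57, 3.31 and 3.18, and in lean-parent males 3.50, 3.70, 4.36 and 3.68. Apart from the single obese-father female at 5.49, array 22, the obese-father pools lay below the lean-parent pools of the same sex, with 1 male pool at 3.57 overlapping. In obese-mother embryos Spry2 was 3.53, 3.38, 3.81 and 3.35 in females and 3.90, 3.28, 3.33 and 4.21 in males.

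With all arrays the Spry2 difference between obese-father and lean-parent embryos was -0.48 in males (SE 0.38, interval -1.27 to 0.31, limma adjusted p = 0.497) and 0.04 in females (SE 0.38, interval -0.74 to 0.83). Over both sexes it was -0.22 (SE 0.27, limma adjusted p = 0.750). Without array 22 it was -0.57 in females (limma adjusted p = 0.789) and -0.53 over both sexes (SE 0.14, limma adjusted p = 0.993). That array also set the sign of the male-minus-female difference with an obese father, which was -0.31 with it and 0.31 without it, and of the difference of the obese-father effect between the sexes (-0.52 with it, 0.10 without it). Array 22 had the widest spread of all 24, an SD of 1.81. With the SD of the array as a covariate the difference in males was -1.0 (SE 0.32, limma adjusted p = 0.495), and without lean-parent male array 3, at 4.36, it was -0.30.

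Spry4, the second Sprouty gene, was highest in obese-mother females, at 3.65, 2.98, 2.81 and 2.98, and lowest in obese-father females, at 2.86, 2.65, 2.64 and 2.37. The values of these groups overlapped, and lean-parent females lay between them at 2.93, 2.90, 2.49 and 2.73. Obese-mother minus obese-father females differed by 0.47 (SE 0.18, interval 0.09 to 0.86, limma adjusted p = 0.975), with an unadjusted p under 0.05. In that comparison 3.25% of all genes had an unadjusted p under 0.05 and 0% passed the adjusted threshold. The other obese-mother difference, from lean-parent females, was 0.34 (SE 0.18, interval -0.04 to 0.73, limma adjusted p = 0.999). Without the single pool at 3.65, array 17, these differences were 0.29 and 0.16, and the first no longer had an unadjusted p under 0.05. The first also lost that level without obese-father female array 24 (0.39). In males the group means were 2.82 ± 0.17 with lean parents, 2.85 ± 0.27 with an obese mother and 2.74 ± 0.30 with an obese father (SD, n = 4).

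Dusp6 encodes the phosphatase that removes the activating phosphates from ERK in the cytoplasm. Its levels separated the sexes among embryos of obese mothers, at 2.95, 3.0, 3.04 and 3.36 in females and 2.71, 2.76, 2.31 and 2.71 in males. These groups did not overlap, which was so for 1.66% of all genes tested. Male and female pools of lean parents overlapped for all 9 genes (2.19% of all genes did not overlap), as did those of obese fathers (2.04%). All 9 also overlapped between obese-mother and lean-parent males (1.4% of all genes did not) and females (2.53%). The male-minus-female difference was -0.46 (SE 0.19, interval -0.87 to -0.06, limma adjusted p = 0.9999), with an unadjusted p under 0.05, as for 1.41% of all genes, and 0% passed the adjusted threshold. Without array 7 (male, 2.31) or array 20 (female, 3.36) the difference was -0.36 or -0.37, and neither had an unadjusted p under 0.05. For the other kinds of parents it was -0.0034 with lean parents (SE 0.19, interval -0.40 to 0.40) and -0.20 with an obese father (SE 0.19, interval -0.60 to 0.20).

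The obese-mother effect on Dusp6 was -0.19 in males (SE 0.19, interval -0.59 to 0.21) and 0.27 in females (SE 0.19, interval -0.13 to 0.67). Tested directly, the effect differed between males and females by -0.46 (SE 0.27, interval -1.03 to 0.11, limma adjusted p = 0.9999), in a comparison where 2.58% of all genes had an unadjusted p under 0.05. Over all parents Dusp6 was 2.75 ± 0.29 in 12 male and 2.97 ± 0.26 in 12 female pools (SD), with a fitted difference of -0.22 (SE 0.11, interval -0.46 to 0.0082, limma adjusted p = 0.9998). In that comparison 2.17% of all genes had an unadjusted p under 0.05.

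Etv4 and Etv5 encode ETS transcription factors whose transcription follows ERK activity. Etv4 group means ran from 3.10 ± 0.18 in obese-father males to 3.32 ± 0.28 in lean-parent females, a range of 0.22 against a pooled SD within groups of 0.26. Its differences from lean parents were -0.02 and -0.15 in obese-father males and females and 0.09 and -0.06 in obese-mother males and females, each with a standard error of 0.18. The lowest arrays, at 2.75 and 2.77, were an obese-father female and a lean-parent male, and the highest, at 3.72, was a lean-parent female.

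Etv5 group means ran from 3.13 ± 0.30 in obese-father males to 3.36 ± 0.09 in obese-father females (SD, n = 4). The differences from lean parents lay between -0.08 and 0.04 in all 4 comparisons, each with a standard error of 0.15. Males were below females by -0.15 over all parents (SE 0.08, interval -0.33 to 0.02, limma adjusted p = 0.9998). Etv5 was the single gene of the 9 with 2 probe sets, and the values of these sets had a correlation of 0.132 across the 24 arrays. The dimmer set had a mean of 2.48 and exceeded the median of all values on 9 arrays. It gave 0.65 between obese-father and lean-parent females (SE 0.30, limma adjusted p = 0.9998), where the brighter set gave 0.03. The unadjusted p of the 0.65 was 0.0376 in limma, and 406 of 14421 probe sets tested there had one under 0.05. The annotation names Etv5, a gene of chromosome 16, for both. By probe set number, the brighter set falls beside Dusp6 of chromosome 10. The dimmer set falls between Spry2 of chromosome 14 and Spry4 of chromosome 18. Among the other genes of the 9, probe set numbers rose from chromosome 10 through 11 and 14 to 18. In this order the dimmer set, and not the brighter, has the place of a chromosome 16 gene. Probe positions were not available to check this. The Etv5 values hold for the brighter set only and are probably not those of the gene.

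The order of the 6 group means differed from gene to gene. Obese-father males had the lowest mean for Fgf4, Fgfr1, Grb2, Spry2, Etv4 and Etv5 and the highest for Fgfr2. How many of all genes were lowest in that group was not computed. Against lean-parent males 33.3% of all genes tested were above 0 there (median -0.11), so these low means cannot be read as particular to the 9. On the dimmer Etv5 set the lowest mean was that of lean-parent females, 2.17. For each of the 9 genes the largest gap between neighbouring means was smaller than the pooled SD within groups, narrowly so for Spry4 (0.256 against 0.262) and by far for Etv4 (0.06 against 0.26), so neighbours in the order did not differ beyond their spread.

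The 9 genes, with Etv5 on its brighter set, did not vary as a block from pool to pool. Over the 36 pairs, Pearson correlations across the 24 arrays, after regressing out the array SD, ran from -0.423 to 0.366 with a median of 0.0063, and 19 were above 0. The pools may share mothers, and the points share the arrays' spread. The pair with the smallest p was Spry2 and Etv4 (r = -0.423, permutation p = 0.0412, adjusted p = 0.969; Spearman rho = -0.490, permutation p = 0.0168, adjusted p = 0.514; 36 pairs). On the values as deposited r was -0.539 for this pair, and without the 2 arrays farthest from the median of Spry2 it was -0.225. After regressing out the array SD, r without the 2 arrays farthest from the Spry2 median of those values was -0.390. Next by p were Fgfr1 and Etv4, with r = 0.366 (permutation p = 0.078, adjusted p = 0.969) and rho = 0.333 (permutation p = 0.112, adjusted p = 0.673). Fgfr1 and Spry4 followed, with r = -0.352 (permutation p = 0.092, adjusted p = 0.969) and rho = -0.432 (permutation p = 0.037, adjusted p = 0.514). The feedback genes Spry4 and Dusp6 gave r = 0.337 (permutation p = 0.108, adjusted p = 0.969) and rho = 0.421 (permutation p = 0.0429, adjusted p = 0.514). None of the 36 pairs passed the adjusted threshold, and 1 had an unadjusted p under 0.05 by Pearson's r.

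**Figure D4:**
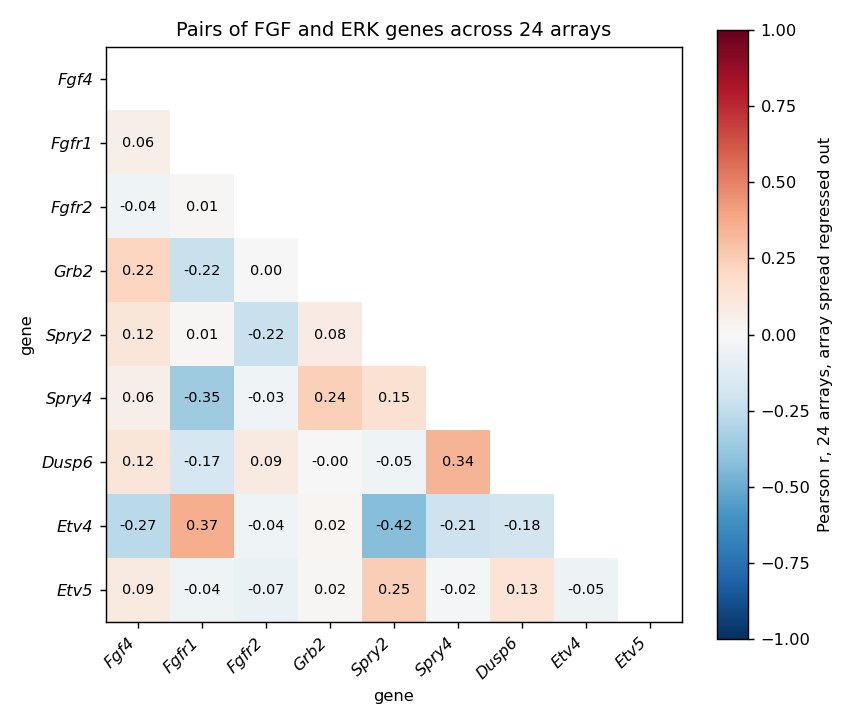
Pearson correlation across 24 arrays for the 36 pairs of the 9 genes, after regressing out the standard deviation of the array. Colours run from blue (-1) to red (1), and the values printed in the cells lie between -0.42 and 0.37.

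The tested genes whose levels followed each of the 9 most closely over the 24 arrays, by Pearson's r after regressing out the array SD, lay outside the 9. They were Mlxip (0.689) and Olfr825 (0.662) for Fgf4, Stxbp3 (0.671) and Pomgnt1 (0.634) for Fgfr1, Vgll1 (0.698) and B3gnt5 (0.672) for Fgfr2, and Mast1 (0.664) and Klf11 (0.660) for Grb2. For the feedback genes they were Tmprss2 (0.820) and Rtcb (0.816) for Spry2, Castor1 (0.742) and Mr1 (0.737) for Spry4, and Dhodh (0.689) and Sh3bp5l (0.630) for Dusp6. For the ETS factors they were D130007C19Rik (0.770) and AI413582 (0.722) for Etv4, and Cic (0.710) and Dlx4 (0.690) for the brighter Etv5 set, which is probably not a measure of that gene. Each was picked as the highest of 13311 genes, so the size of r is no finding in itself.

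The rest of the pathway was described with 6 lists of 95 further genes, of which 86 were named on the array and 69 tested. In obese-father males 3 of the 69 had an unadjusted p under 0.05 in the higher and 8 in the lower direction, together 15.9% against 14.7% of all genes, and the median was -0.11, as for all genes. In obese-father females 3 were higher and 0 lower (4.35% against 2.84%). In obese-mother males 1 was higher and 0 lower (1.45% against 1.7%), and in obese-mother females 3 were higher and 0 lower (4.35% against 2.19%), with 54 of 69 above 0 where 61.7% of all genes were. No gene of these lists passed the adjusted threshold in limma in any of the 4 comparisons.

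**Figure D5:**
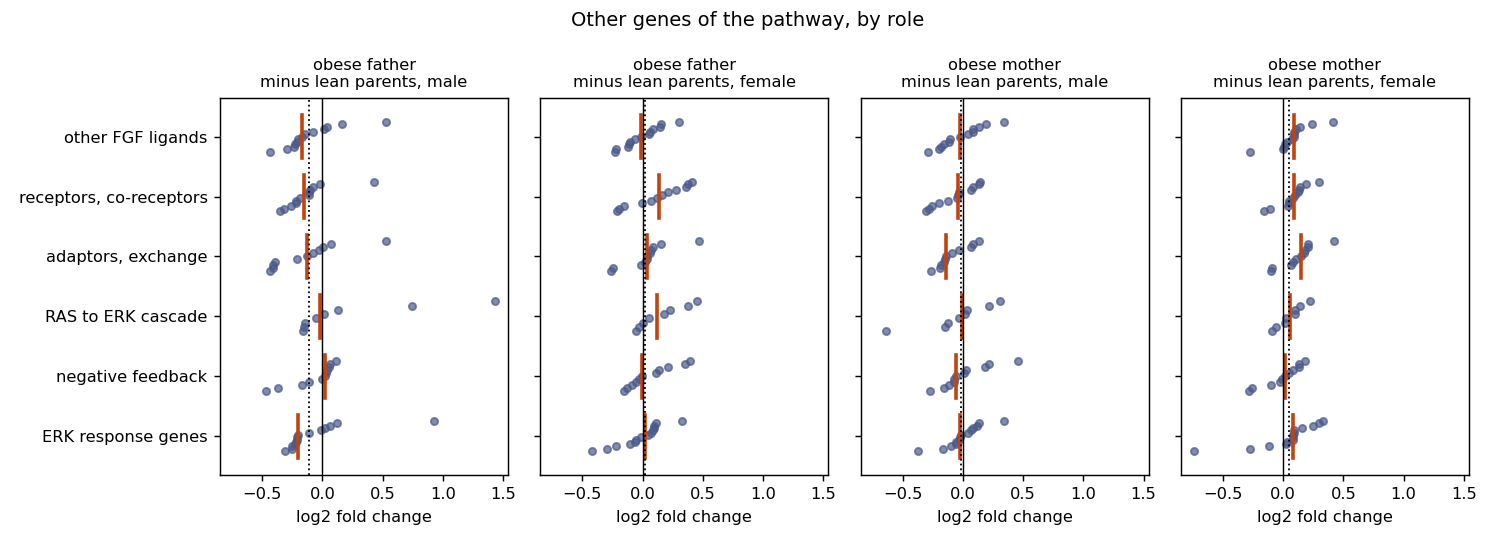
Log2 fold changes against lean parents of the 69 tested genes in the 6 pathway lists. Points are genes, orange bars the median of each list and dotted lines the median of all 13311 genes tested. In obese-father males the ligand list has a median of -0.17 and the ERK response genes -0.20, beside -0.11 for all genes, while the RAS to ERK cascade has -0.02 and the negative feedback genes 0.03, and Lamtor3 stands alone at 1.43.

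Among 13 other FGF ligands tested, Fgf22 was 3.17 ± 0.33 in obese-father and 2.64 ± 0.13 in lean-parent males (SD, n = 4; difference 0.53, SE 0.14, limma adjusted p = 0.316), and 0.34 above lean parents in obese-mother males (limma adjusted p = 0.9999). Fgf8, a ligand of gastrulation, was 3.60 ± 0.25 against 4.03 ± 0.17 in the obese-father comparison of males (-0.43, SE 0.15, limma adjusted p = 0.316). Fgf13, an intracellular member of the family, differed by 0.41 in obese-mother females (limma adjusted p = 0.999), and Fgf9 by -0.29 in obese-mother males (limma adjusted p = 0.9999). Among 12 receptors, co-receptors and heparan sulfate enzymes, the Klotho co-receptor gene Kl differed by -0.35 in obese-father males (limma adjusted p = 0.316) and the sulfotransferase gene Hs6st1 by 0.38 in obese-father females (limma adjusted p = 0.9997). Ndst2 gave 0.29 in obese-mother females and Fgfr4 -0.28 in obese-mother males, with neither at an unadjusted p under 0.05.

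Of 11 adaptors and exchange factors, the docking protein gene Gab1 was above lean-parent females by 0.46 in obese-father females (limma adjusted p = 0.9997) and by 0.43 in obese-mother females (limma adjusted p = 0.999), comparisons that share the same 4 lean-parent arrays. In obese-father males Frs3 differed by -0.44, Shc1 by -0.39 and Gab2 by -0.41, each with an adjusted p between 0.316 and 0.320 in limma. Of 8 genes of the RAS to ERK cascade, Lamtor3, a scaffold of the ERK cascade on endosomes, was 3.78 ± 0.85 in obese-father and 2.34 ± 0.46 in lean-parent males (SD, n = 4; difference 1.43, SE 0.43, limma adjusted p = 0.316). Shoc2 gave 0.75 in the same comparison, Nras -0.63 in obese-mother males and Map2k1 0.23 in obese-father females. The other genes of the cascade were not analysed here.

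Of 11 other feedback genes, Spry1 differed by -0.37 (limma adjusted p = 0.325) and Dusp5 by -0.47 (limma adjusted p = 0.331) in obese-father males. Spred3 and Dusp4 gave -0.26 and -0.29 in obese-mother females. Of 14 ERK response genes, Srf differed by 0.33 in obese-mother females (limma adjusted p = 0.999) and the immediate early gene Ier3 by 0.32 in obese-father females (limma adjusted p = 0.9997). Mcl1 gave 0.93 and Egr1 -0.31 in obese-father males, with adjusted p of 0.374 and 0.392 in limma.

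Markers of maternal cells that could be carried over were described beside these values. Of 9 cumulus and granulosa markers named on the array 6 were tested, and 0 of the 6 were above 0 in obese-father against lean-parent males (median -0.40; 33.3% of all genes were above 0, median -0.11). Of the 6, 4 had an unadjusted p under 0.05, all lower, and 0 passed the adjusted threshold in limma. Of all 13311 genes, 14.7% had such a p in either direction and 1386 genes in the lower direction. The mean level of the list ran from 2.28 to 2.70 against 2.59 to 3.06. This is near the median of all values, 2.56, and a wider array SD places dim genes lower on average. Obese-father males had the highest mean array SD. The shares of all genes are not matched to this list for brightness, and the part of array spread was not tested. Of 7 blood markers named on the array 2 were tested, and the others were too dim. Of 7 uterine and oviduct markers 4 were tested, with 2 above 0 in obese-father against lean-parent males. Of the 4, 1 had an unadjusted p under 0.05 there, in the higher direction, beside 14.7% of all genes. In limma 0 of the 4 passed the adjusted threshold. The part of such cells in the values of the 9 genes was not tested.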

How the data were processed

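Each of the 24 pools was hybridised to an Affymetrix Mouse Gene 1.0 ST array. The authors deposited log2 intensities of probe sets, computed with RMA in affy per the submitters' processing notes. The versions, the probe set definition and the build were not given in the sources used here. Per the labels' protocols, RNA was amplified and biotin-labelled with NuGEN kits.

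There were 35556 probe sets, 24 columns and 0 missing values. The platform annotation at GEO gave 21789 sets 1 symbol, 1621 several and 12146 none, and the last 2 kinds were not used. Gene numbers of 21698 sets were found in RefSeq (GRCm38.p6), and 0 symbols changed. The brightest set was used for the 999 genes with several. Genes exceeding the median of all values on at least 4 arrays were tested (13311; 6627 removed).

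A model with a mean per group was fitted to all 24 arrays with limma 3.58.1 (lmFit, eBayes; R 4.3.3), with 14 contrasts and Benjamini-Hochberg adjustment within each; correlations used 100000 permutations (Python 3.11.15). The procedure was tested on simulated data. Members and lists were chosen with earlier results of these data known. The 9 members are always named, as are the 2 genes most alike to each and, of each pathway list, the 4 with the smallest unadjusted p against lean parents. The alternatives tried are in the closing section. The number of arrays limits the precision.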

Additional observations from a re-analysis of the deposited data

Results flagged for a closer look

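Of 54 groups of 4 arrays (9 genes in 6 groups), 1 held an array far from the rest. Dusp6 in obese-mother male array 7 was at 2.31, with the other 3 arrays of the group between 2.71 and 2.76, and the gap was 0.886 of the group's range against a critical value of 0.829 (Dixon's test). Chance alone marks about 1 in 20 groups in this way.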

How the results depend on the processing

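Results were recomputed under 13 settings and in 24 fits that each left out an array, giving 2929 alternatives for 126 values of the 9 genes. A total of 2 passed the adjusted threshold: Fgfr2 in obese-father males (adjusted p = 0.0303) and over both sexes (adjusted p = 0.0392) in limma after adding the first principal component of the residuals to the model. That component is computed from the residuals, so fold changes stay as they are and standard errors shrink by construction. In 231 alternatives of 60 values the sign changed without passing the threshold; of 32 values beyond 0.2, 3 did so, Spry2 in 2 comparisons and Grb2 in obese-mother females. Among all genes, the calls with that component were 1901 and 2 for obese-father against lean-parent males and females, 2 for obese-mother against lean-parent males, 601 and 1 for obese mother against obese father in males and females, 11 and 21 for the sexes with lean parents and an obese father, 350 and 9 for the father and mother effect between the sexes, and 511 for the father effect over both sexes. The 1 gene called in each of 3 comparisons (obese father against lean parents in males, obese mother against obese father in males, and the sexes with an obese father) became 0, 0 and 0 with the stricter filter and with the compared groups alone. With array weights the first 2 counts were 2 and 2. With the array SD as a covariate the 3 counts were 2, 0 and 4, and the father effect between the sexes had 2. With each probe set as a feature the last 2 counts were 2 and 0, with centred arrays the third was 0, and without the 2 arrays of widest spread the second was 0. Quantile normalization gave 1 for the sexes with lean parents and 1 for the mother effect between the sexes. Leaving out each array gave 0 to 2 calls for obese-father against lean-parent males and for obese mother against obese father in males, 0 to 1 for the other 2 female parent comparisons involving obese fathers, for the sexes with an obese father and for the father effect over both sexes, and 0 to 0 elsewhere. Dropping the filter, averaging probe sets, a robust prior with trend and a threshold of 0.10 moved no count by over 1.5 times. The cause of the other changes was not tested. No paired analysis was possible because array numbers are unique and no groups share them.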

Other observations

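The dimmer Etv5 probe set had group means of 2.17 ± 0.27 in lean-parent females, 2.61 ± 0.80 in lean-parent males, 2.54 ± 0.33 in obese-mother females, 2.40 ± 0.24 in obese-mother males, 2.83 ± 0.33 in obese-father females and 2.34 ± 0.41 in obese-father males (SD, n = 4). The lean-parent males included an array at 3.80. The father effect on this set differed between the sexes by -0.93 (SE 0.42, limma adjusted p = 0.629), where the brighter set named Etv5 gave -0.10. The unadjusted p of the -0.93 was 0.0376 in limma, and 1126 of 14421 probe sets tested had one under 0.05 in that comparison.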
